A study of Mus musculus with 18 samples.

Results

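The expression of 8 chemokine ligand genes, Ccl22, Ccl17, Ccl3, Ccl4, Ccl5, Cxcl9, Cxcl10 and Cxcl16, was examined in splenic B cells of MRL/lpr mice before and after stimulation through chimeric or unmodified endosomal Toll-like receptors (TLRs). The genes were taken by symbol, and all 8 were listed among the 23420 genes measured by RNA sequencing in 18 libraries. They are a subset of the 39 chemokine ligand genes found in the files out of 40 looked for, and they were chosen by family membership after the CpG responses of Ccl22 and the level of Ccl4 with CpG in the 2 genotypes were known. Those values of Ccl22 and Ccl4 are therefore given as descriptions without a test. MRL/lpr mice carry the Fas lpr mutation and develop a lupus-like disease. All mice were 5 to 7 weeks old, and B cells were enriched with beads that remove other cells. The first arm used female mice lacking TLR7. Its Tlr9het group (Tlr9+/- Tlr7-/-) kept an unmodified TLR9, and its Tlr997 group (Tlr997 Tlr7-/-) carried a TLR9 whose signaling TIR domain was that of TLR7. Cells of both genotypes were cultured for 4 h with the TLR9 agonist CpG (ODN 1826, 10 µg/ml) or without stimulus. The second arm used male Tlr779 Tlr9-/- mice, whose TLR7 carried the TIR domain of TLR9, and the TLR7 agonist CL097 (5 µg/ml) or no stimulus for 4 h. Both chimeras are germline alleles made with CRISPR, so that every cell type of these mice, not B cells alone, carried them. Each of the 6 groups held 3 libraries. The protocol in the labels names the control of the first arm Tlr9-/- Tlr7-/-, whereas the sample titles give Tlr9+/-, and the titles were followed. Arm, sex, genotype and agonist differed together between the arms and their parts cannot be told apart, so no test was made across arms.

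Chemokines are small secreted proteins that bind heptahelical receptors and direct the migration of leukocytes. Ccl22 and Ccl17 are the ligands of Ccr4, found on regulatory and helper T cells. Ccl3, Ccl4 and Ccl5 are inflammatory chemokines that attract T cells and monocytes. Cxcl9 and Cxcl10 bind Cxcr3 on activated T cells, and Cxcl16, made as a transmembrane protein and shed by proteases, binds Cxcr6. Activated B cells are a known source of Ccl3, Ccl4 and Ccl22, ligands by which they attract T cells. TLR7 and TLR9 signal through MyD88 to NF-κB and interferon regulatory factors, and many chemokine genes are targets of these factors.

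Several of the genes lie side by side in the mouse genome (GRCm38, GENCODE coordinates). Ccl22 (chromosome 8, 94745590 to 94751699, plus strand) and Ccl17 (94810453 to 94812036, plus strand) were 58.8 kb apart, with the coding gene Cx3cl1 between them. On chromosome 11, Ccl3 (83647844 to 83649355, minus strand) and Ccl4 (83662584 to 83664683, plus strand) were 13.2 kb apart with no annotated gene between them. Ccl5 (83525778 to 83530518, minus strand) and Cxcl16 (70453983 to 70459984, minus strand) are on the same chromosome. On chromosome 5, Cxcl9 (92321347 to 92328079) and Cxcl10 (92346638 to 92348889), both on the minus strand, were 18.6 kb apart. All 8 are protein-coding genes of 3 to 5 exons. Cxcl10 overlaps Art3 and Cxcl16 overlaps Zmynd15, each on the opposite strand. These overlaps are of whole gene spans, and overlap of exons was not examined. The libraries were stranded, but the strand setting of the counting is not given in the sources used here. Whether reads of these pairs were mixed is therefore unknown.

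The sequences before the transcription start of 3 genes are shown because Cxcl10 was called in all responses and its neighbour Cxcl9 in none, a difference that was not tested, and because Ccl22 had the largest difference between genotypes. They are RefSeq promoters of GRCm38.p6, for which 5 of the 8 genes were matched (Cxcl9, Cxcl10, Ccl22, Ccl17 and Ccl3). Capitals mark matches on either strand to the NF-κB consensus or to the core of the interferon-stimulated response element, which is GAAA followed by any 2 bases and another GAAA. The Cxcl10 sequence covers chr5:92348890-92349139, the Cxcl9 sequence chr5:92328080-92328329 and the Ccl22 sequence chr8:94745434-94745589, each written 5′ to 3′ on the strand of its gene.
Cxcl10: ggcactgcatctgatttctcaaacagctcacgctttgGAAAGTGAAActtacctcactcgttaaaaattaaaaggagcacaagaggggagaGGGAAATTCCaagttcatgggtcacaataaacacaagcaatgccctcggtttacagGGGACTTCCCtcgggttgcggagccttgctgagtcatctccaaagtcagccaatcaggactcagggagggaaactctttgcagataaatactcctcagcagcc
Cxcl9: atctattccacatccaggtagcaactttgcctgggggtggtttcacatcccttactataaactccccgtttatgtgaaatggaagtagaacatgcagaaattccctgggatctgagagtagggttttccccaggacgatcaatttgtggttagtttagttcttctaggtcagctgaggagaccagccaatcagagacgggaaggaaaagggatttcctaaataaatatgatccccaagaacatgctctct
Ccl22: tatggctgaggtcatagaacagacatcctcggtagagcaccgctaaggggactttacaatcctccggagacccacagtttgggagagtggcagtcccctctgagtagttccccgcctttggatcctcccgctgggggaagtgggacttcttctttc

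The Cxcl10 window held 2 matches to the NF-κB consensus, 103 and 159 bases before the start, and 1 match to the response element core, 213 bases before it. No match to either was in the Cxcl9 window of 250 bases or in the 156 bases shown for Ccl22. The windows of Ccl3 and Ccl17, also of 250 bases, held no match to either, although Ccl3 was called in all responses. The matches therefore did not follow the calls over the genes scanned. Among 32851 promoter windows of 250 bases, 3.90% held the NF-κB consensus and 2.98% the response element core. A match describes letters only, and its absence from a window says nothing about binding of a factor.

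Values are log2 CPM, the log2 of counts scaled to a common library size (CPM) as normalised by the authors, so a difference of 1 is a doubling. Library depth is unknown, since counts were not among the values. Each file summed to between 991992 and 1004412 CPM. The 6 B cell markers summed to 5523 to 7338 CPM without stimulus, 1653 to 1721 CPM with CpG in Tlr9het, 2598 to 3160 CPM with CpG in Tlr997 and 2373 to 3021 CPM with CL097 in Tlr779. Of these markers, Pax5 was between 6.73 and 7.43 log2 CPM over all libraries and Cd79a between 7.49 and 11.19. The part of this lower B cell marker level in the responses was not tested. Tlr7 was between 2.68 and 4.28 in Tlr9het, 4.81 and 5.36 in Tlr997 and 6.61 and 7.82 in Tlr779, whereas Tlr9 was at 6.93 to 7.47 in the libraries labelled Tlr9-/- and at 7.01 to 8.08 in the others, so gene-level values do not check the Tlr9 labels. Markers of other cells were present. Summed over the 7 macrophage genes, they came to 127 to 453 CPM without stimulus and 85.7 to 192 CPM with an agonist. Within groups, replicates correlated across 11676 genes at 0.976 or more, except for replicate 3 of unstimulated Tlr997, at 0.944 and 0.955.

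Differences were tested with limma across all genes with a value over 0 log2 CPM in at least 3 of the fitted libraries. A gene was called where its log2 fold change exceeded 0.5 in size and its p, adjusted by Benjamini-Hochberg, was under 0.05. Of the 8 genes, 7 passed the filter in both arms and Ccl17 in neither. The 6 genes called in the responses below were over 0 log2 CPM in every unstimulated library too, so none entered through its stimulated group alone. The labels do not say that replicate numbers are separate mice, although the protocol names 3 mice per genotype. The p-values therefore refer to the spread between these libraries as deposited. An offset per gene and replicate number had been removed before deposit, which can narrow that spread, so the p-values may be too small.

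In each of the 3 responses, 6 of the 7 tested chemokines were called higher with the agonist and 0 lower, and Cxcl9 was the exception in all 3. In both CpG responses the count includes Ccl22 and Ccl4, whose values with CpG were known at the choice, so it is a description and nothing is read from it. For CpG in Tlr9het, 29.7% of the 11494 genes tested were called higher and 28.2% lower. For CpG in Tlr997 these shares were 29.6% and 26.0%, and for CL097 in Tlr779 they were 22.7% and 23.6% of 11082 genes. The median log2 fold change of the tested chemokines was 2.25 in Tlr9het, 2.49 in Tlr997 and 2.26 in Tlr779, against 0.04, 0.07 and -0.02 over all genes tested. The first of these medians is the value of Ccl22 and the next that of Ccl4, so they too are descriptions of the chosen genes. In bulk RNA, more cells expressing a gene and more RNA per cell cannot be told apart. The plot of levels by library shows these values for each gene.

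**Figure D1:**
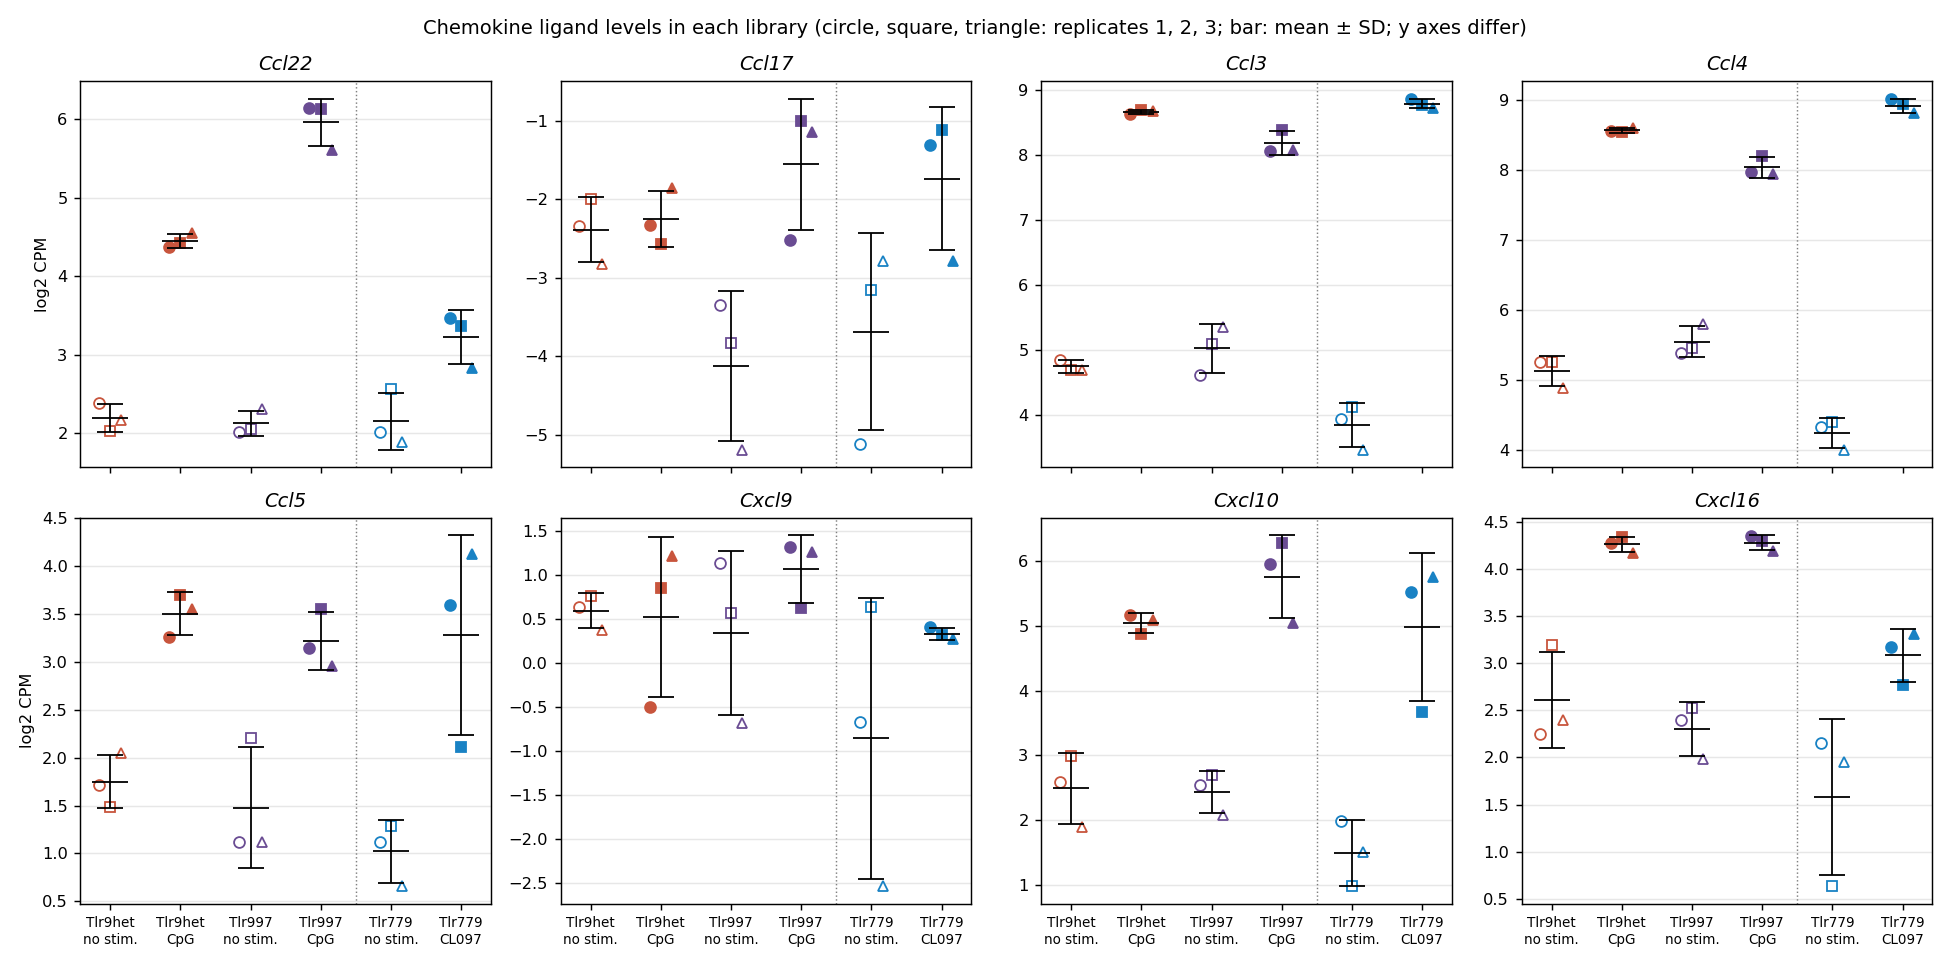
Level of each of the 8 chemokine ligand genes in log2 CPM in every library, by group (open symbols without stimulus, filled symbols with agonist, replicates 1 to 3 as circle, square and triangle, bars for the mean and SD of n = 3). Stimulated and unstimulated libraries did not overlap for Ccl22, Ccl3, Ccl4, Ccl5, Cxcl10 and Cxcl16 in any genotype, whereas those of Cxcl9 overlapped in all 3. The share of all genes without such overlap was not computed, so these statements, here and in the text, are descriptions only. The y axes differ between genes.

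Of the Ccr4 ligands, Ccl22 was at a similar low level in all unstimulated groups and differed between the stimulated ones. Without stimulus it was at 2.38, 2.03 and 2.17 log2 CPM in Tlr9het, 2.01, 2.06 and 2.31 in Tlr997 and 2.01, 2.57 and 1.88 in Tlr779. With CpG it was at 4.36, 4.42 and 4.54 in Tlr9het and at 6.14, 6.13 and 5.61 in Tlr997. With CL097 it was at 3.47, 3.37 and 2.83 in Tlr779. The lowest Tlr997 library with CpG lay above the highest Tlr9het library with CpG, and both stimulated groups lay above every Tlr779 library.

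Ordered by mean, Ccl22 stood at 5.96 ± 0.30 (SD, n = 3) in Tlr997 with CpG, at 4.45 ± 0.09 in Tlr9het with CpG and at 3.22 ± 0.34 in Tlr779 with CL097. The unstimulated groups followed at 2.19 ± 0.18 in Tlr9het, 2.15 ± 0.36 in Tlr779 and 2.13 ± 0.16 in Tlr997, and these 3 overlapped one another. With CpG the log2 fold change of Ccl22 was 2.25 (SE 0.16), or 4.76-fold, in Tlr9het and 3.83 (SE 0.16), or 14.2-fold, in Tlr997. These 2 changes were known when the gene was chosen and carry no test here. With CL097 in Tlr779, Ccl22 rose by 1.07 (SE 0.25), or 2.10-fold (limma, Benjamini-Hochberg adjusted p = 0.00653). Without the filter on low values this adjusted p was 0.0521.

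Ccl17, the neighbour and the other ligand of Ccr4, was near the detection limit. Its values ran from -5.192 to -1.005 log2 CPM, and 12 of the 18 were at or below -2.24, the level that the offset in the values places at 3 counts. In Tlr9het they were -2.34, -2.002 and -2.82 without stimulus and -2.32, -2.57 and -1.86 with CpG, and the groups overlapped. In Tlr997 they were -3.34, -3.84 and -5.19 without stimulus and -2.52, -1.005 and -1.14 with CpG, with no overlap, and in Tlr779 -5.12, -3.16 and -2.78 without stimulus and -1.31, -1.12 and -2.78 with CL097. No fold is given at these levels. In a fit of all 23420 genes without a filter, Ccl17 passed the call in 1 comparison, with CpG in Tlr997 (limma, Benjamini-Hochberg adjusted p = 0.00542). Ccr4 itself was low, with group means between -4.08 and -1.93 log2 CPM.

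The inflammatory chemokines Ccl3 and Ccl4 reached the highest levels of the 8 genes and moved together. Per kilobase of exon, on a log2 CPM scale, Ccl3 was at 9.05 in Tlr9het with CpG, 8.57 in Tlr997 with CpG and 9.18 in Tlr779 with CL097, and Ccl4 at 9.17, 8.64 and 9.52. On the same scale Ccl22 was at 3.30, 4.81 and 2.08. Over the 18 libraries, which include both states of stimulation, the log2 values of Ccl3 and Ccl4 correlated at r = 0.996.

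For Ccl3, the unstimulated libraries were at 4.85, 4.68 and 4.69 log2 CPM in Tlr9het, 4.61, 5.09 and 5.36 in Tlr997 and 3.93, 4.11 and 3.46 in Tlr779. The stimulated libraries were at 8.63, 8.69 and 8.68 in Tlr9het, 8.07, 8.39 and 8.09 in Tlr997 and 8.87, 8.77 and 8.73 in Tlr779. In each genotype every stimulated library lay above every unstimulated one. Ccl3 rose by 3.92 (SE 0.15, adjusted p = 4.8e-11, limma) in Tlr9het, by 3.16 (SE 0.15, adjusted p = 4.4e-10) in Tlr997 and by 4.96 (SE 0.16, adjusted p = 1.8e-06) in Tlr779.

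For Ccl4, the unstimulated libraries were at 5.26, 5.25 and 4.89 log2 CPM in Tlr9het, 5.39, 5.46 and 5.80 in Tlr997 and 4.33, 4.40 and 4.00 in Tlr779. The stimulated libraries were at 8.56, 8.54 and 8.60 in Tlr9het, 7.97, 8.21 and 7.94 in Tlr997 and 9.01, 8.94 and 8.81 in Tlr779. The order of the groups differed between the states. The Tlr997 libraries were the highest without stimulus and the lowest with an agonist. With CpG the log2 fold change of Ccl4 was 3.44 (SE 0.12) in Tlr9het and 2.49 (SE 0.12) in Tlr997, given without a test because its levels with CpG were known. With CL097 in Tlr779, Ccl4 rose by 4.68 (SE 0.11, adjusted p = 5.9e-07, limma), or 25.6-fold.

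Ccl5, an inflammatory chemokine best known from T cells and natural killer (NK) cells, was lower throughout. It was at 1.72, 1.49 and 2.04 log2 CPM in Tlr9het, 1.12, 2.20 and 1.12 in Tlr997 and 1.12, 1.28 and 0.66 in Tlr779 without stimulus. It was at 3.26, 3.70 and 3.55 with CpG in Tlr9het, 3.15, 3.55 and 2.96 with CpG in Tlr997 and 3.60, 2.12 and 4.13 with CL097 in Tlr779. The states did not overlap within a genotype, although replicate 2 of Tlr779 with CL097 stood apart from its replicates. Ccl5 rose by 1.76 (SE 0.29, adjusted p = 9.7e-05, limma) in Tlr9het, by 1.74 (SE 0.29, adjusted p = 1.1e-04) in Tlr997 and by 2.26 (SE 0.48, adjusted p = 0.00397, or 0.0572 without the filter) in Tlr779. The 6 NK cell markers summed to 6.05 to 13.0 CPM without stimulus and 9.05 to 22.7 with CpG in Tlr9het, 5.84 to 10.6 and 11.3 to 17.6 in Tlr997, and 7.01 to 9.80 and 4.55 to 10.1 with CL097 in Tlr779. The part of NK cells in the Ccl5 values was not tested. The 7 T cell markers summed to 51.2 to 90.7 CPM without stimulus and 56.4 to 122 CPM with an agonist, of which Lck, a gene that some B cells express, made up 77.0% to 97.9%. T cells were likewise not tested as a part of the result.

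The Cxcr3 ligands Cxcl10 and Cxcl9, neighbours on chromosome 5 and both inducible by interferon, are given together. Without stimulus Cxcl10 was at 2.58, 2.99 and 1.90 log2 CPM in Tlr9het, 2.54, 2.70 and 2.08 in Tlr997 and 1.99, 0.98 and 1.52 in Tlr779. With agonist it was at 5.16, 4.87 and 5.09 in Tlr9het, 5.96, 6.27 and 5.04 in Tlr997 and 5.53, 3.68 and 5.75 in Tlr779. The states did not overlap in any genotype. Cxcl10 rose by 2.55 (SE 0.31, adjusted p = 5.4e-06, limma) in Tlr9het, by 3.32 (SE 0.31, adjusted p = 4.4e-07) in Tlr997 and by 3.49 (SE 0.53, adjusted p = 6.6e-04) in Tlr779.

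Cxcl9 was at 0.64, 0.77 and 0.38 log2 CPM in Tlr9het, 1.14, 0.58 and -0.68 in Tlr997 and -0.66, 0.64 and -2.53 in Tlr779 without stimulus. With agonist it was at -0.50, 0.86 and 1.22 in Tlr9het, 1.32, 0.62 and 1.26 in Tlr997 and 0.41, 0.32 and 0.28 in Tlr779. The states overlapped in all 3 genotypes. Its log2 fold change was -0.07 (SE 0.51, adjusted p = 0.912, limma, 95% interval -1.18 to 1.04) in Tlr9het, 0.72 (SE 0.51, adjusted p = 0.224, -0.39 to 1.83) in Tlr997 and 1.19 (SE 0.74, adjusted p = 0.196, -0.52 to 2.90) in Tlr779. Without replicate 2 of unstimulated Tlr779, the highest of its group, the CL097 value was 1.94 (adjusted p = 0.0369). A change of the size seen for Cxcl16 in Tlr9het lay outside the interval in Tlr9het only. No test compared Cxcl9 directly with Cxcl10, and in Tlr779 the 95% interval of Cxcl10, 2.27 to 4.70, overlapped that of Cxcl9. Per kilobase of exon, Cxcl9 stood between -2.38 and -0.46 log2 CPM and Cxcl10 between 0.89 and 5.15 over the 6 group means.

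In Tlr779 with CL097, replicate 2 had the lowest value of its group for Ccl5, Cxcl10 and Cxcl16. In this library the 4 plasmacytoid dendritic cell markers summed to 41.4 CPM, against 85.1 and 99.5 in the other two, with Bst2, itself an interferon-inducible gene, making up 73.7% to 96.5% of that sum over all libraries. That sum was 23.2 to 43.0 CPM over the unstimulated libraries and 57.1 to 84.4 CPM with CpG. By group mean, Bst2 rose with agonist in each genotype. Siglech fell in each, from 2.21 to 1.72 in Tlr9het, 1.51 to 0.70 in Tlr997 and 0.99 to 0.27 in Tlr779. Ccr9 and Klk1 fell with CpG and were higher with CL097. The part of plasmacytoid dendritic cells in the Cxcl10 values was not tested. With number 2 of both Tlr779 groups left out, Ccl5 rose by 2.98 (limma, adjusted p = 6.2e-04) and Cxcl10 by 3.88 (adjusted p = 1.7e-04), both more than with all libraries, whereas Cxcl16 rose by 1.19 (adjusted p = 0.00613), less than with all libraries.

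Cxcl16, the transmembrane ligand of Cxcr6, rose in all genotypes. It was at 2.24, 3.20 and 2.40 log2 CPM in Tlr9het, 2.39, 2.53 and 1.98 in Tlr997 and 2.15, 0.63 and 1.96 in Tlr779 without stimulus. It was at 4.27, 4.34 and 4.17 with CpG in Tlr9het, 4.35, 4.30 and 4.20 with CpG in Tlr997 and 3.18, 2.77 and 3.31 with CL097 in Tlr779. The states did not overlap, and the 6 CpG libraries spanned a narrow range. Cxcl16 rose by 1.65 (SE 0.22, adjusted p = 1.3e-05, limma) in Tlr9het, by 1.98 (SE 0.22, adjusted p = 2.4e-06) in Tlr997 and by 1.51 (SE 0.39, adjusted p = 0.0107, or 0.0950 without the filter) in Tlr779.

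Macrophages and dendritic cells also make several of these chemokines. The summed macrophage markers ran from 195 to 264 CPM without and from 135 to 152 CPM with CpG in Tlr9het. They ran from 127 to 312 CPM without and from 92.6 to 181 CPM with CpG in Tlr997, and from 175 to 453 CPM without and from 85.7 to 192 CPM with CL097 in Tlr779. In each genotype the stimulated range began and ended lower than the unstimulated one. The part of macrophages in the responses was not tested. The 6 dendritic cell markers summed to 27.5 to 40.5 CPM without stimulus and 68.3 to 98.8 CPM with an agonist over the 3 genotypes. Zbtb46 made up 22.3% to 72.9% of that sum, and over all libraries Flt3 was at 3.42 to 4.87 log2 CPM, Itgax at 1.61 to 2.83, Xcr1 at -1.57 to 0.38, Clec9a at -4.60 to 0.14 and Cd209a at -5.39 to -0.44. Mean Zbtb46 rose from 15.1 to 52.6 CPM in Tlr9het, 15.2 to 55.4 in Tlr997 and 12.1 to 51.9 in Tlr779. By group mean, Flt3 also rose with agonist in each genotype, whereas Itgax and Cd209a fell in each. Xcr1 rose with CpG and fell with CL097, and Clec9a rose in Tlr997 only. The markers thus did not move together, and the part of dendritic cells in the responses was not tested. The 5 neutrophil markers found summed to 21.4 to 130 CPM without and 22.5 to 95.5 CPM with CpG in the first arm and to 3.40 to 15.7 CPM in Tlr779.

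**Figure D2:**
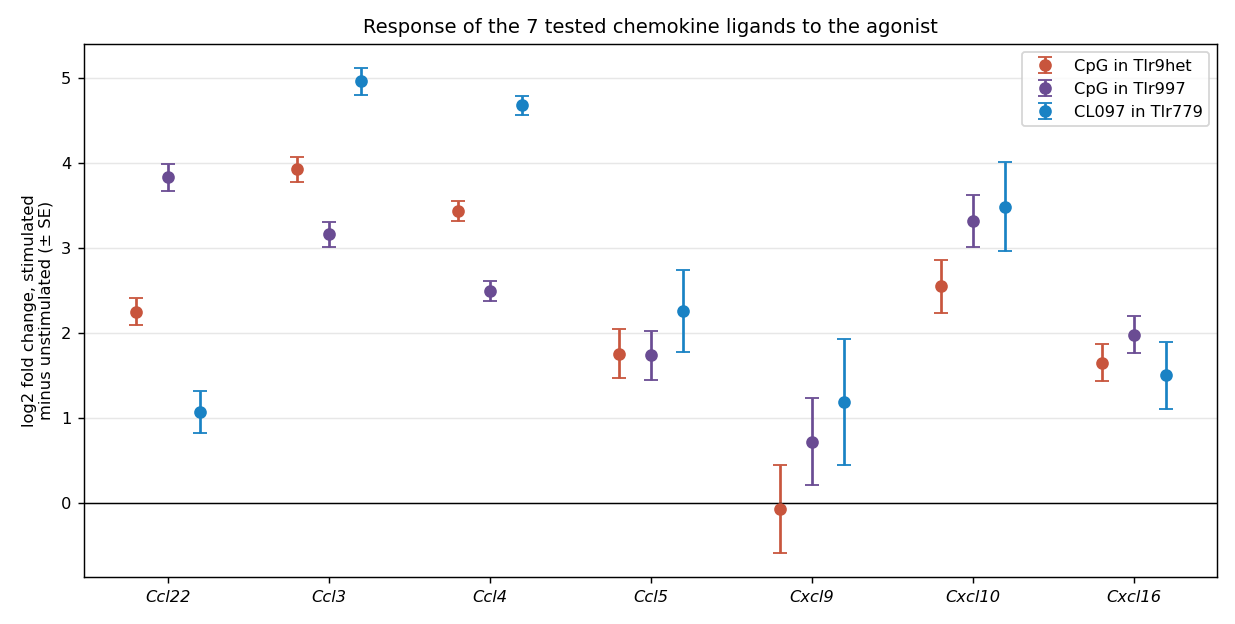
Log2 fold change with agonist of the 7 tested chemokine ligands (y axis, stimulated minus unstimulated) in the 3 genotypes, with error bars of 1 SE from limma. Ccl22 rose most in Tlr997 (3.83) and least in Tlr779 (1.07), whereas Ccl3 and Ccl4 rose most in Tlr779 (4.96 and 4.68) and least in Tlr997 (3.16 and 2.49), with no test across arms.

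The comparison of the genotypes without stimulus asked whether the TIR domain changed the resting level. Of the 7 tested chemokines, 0 were called in either direction, against 0.0174% of all genes called higher and 0% lower, and 1237 of the 11494 genes had an unadjusted p under 0.05. The log2 fold changes, Tlr997 minus Tlr9het, lay between -0.31 for Cxcl16 (adjusted p = 0.630, limma) and 0.41 for Ccl4. For Ccl4 the SE was 0.12 and the adjusted p 0.329 (limma), and its 95% interval, 0.16 to 0.67, lay above 0. The log2 fold change of Ccl22 was -0.07 (SE 0.16, 95% interval -0.41 to 0.28).

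With CpG, 1 of the 7 was called higher in Tlr997 than in Tlr9het and 1 lower, against 1.25% and 1.47% of all genes. The called genes were Ccl22 and Ccl4, the genes whose values were known at the choice, and nothing is read from this count. Ccl22 differed by 1.51 (SE 0.16), or 2.86-fold, between the libraries with CpG. Ccl4 was lower by a log2 fold change of -0.53 (SE 0.12), close to the threshold of 0.5, and it missed the call in 10 of 23 alternative analyses, among them those without any 1 of the Tlr9het libraries with CpG and those without replicate 1 or 3 of Tlr997 with CpG. Its libraries in the 2 genotypes did not overlap, at 7.94 to 8.21 against 8.54 to 8.60 log2 CPM.

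Of the others, Ccl3 differed in the same direction as Ccl4, by -0.48 (SE 0.15), and was not called (adjusted p = 0.0783, limma). Its libraries, at 8.07 to 8.39 in Tlr997 and 8.63 to 8.69 in Tlr9het, did not overlap either. Cxcl10 was at 5.76 ± 0.64 (SD, n = 3) in Tlr997 and 5.04 ± 0.15 in Tlr9het with CpG, a log2 fold change of 0.72 (SE 0.31, 95% interval 0.05 to 1.39, adjusted p = 0.227), and replicate 3 of Tlr997 overlapped the Tlr9het libraries. Without number 3 of both Tlr997 groups, the number of the unstimulated library that stood apart, the difference of Cxcl10 was 1.08 with an adjusted p of 0.0293. Cxcl16 differed by 0.02 (SE 0.22, adjusted p = 0.981), with an interval from -0.45 to 0.49. Ccl5 differed by -0.29 (SE 0.29, adjusted p = 0.683) and Cxcl9 by 0.54 (SE 0.51, adjusted p = 0.655).

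**Figure D3:**
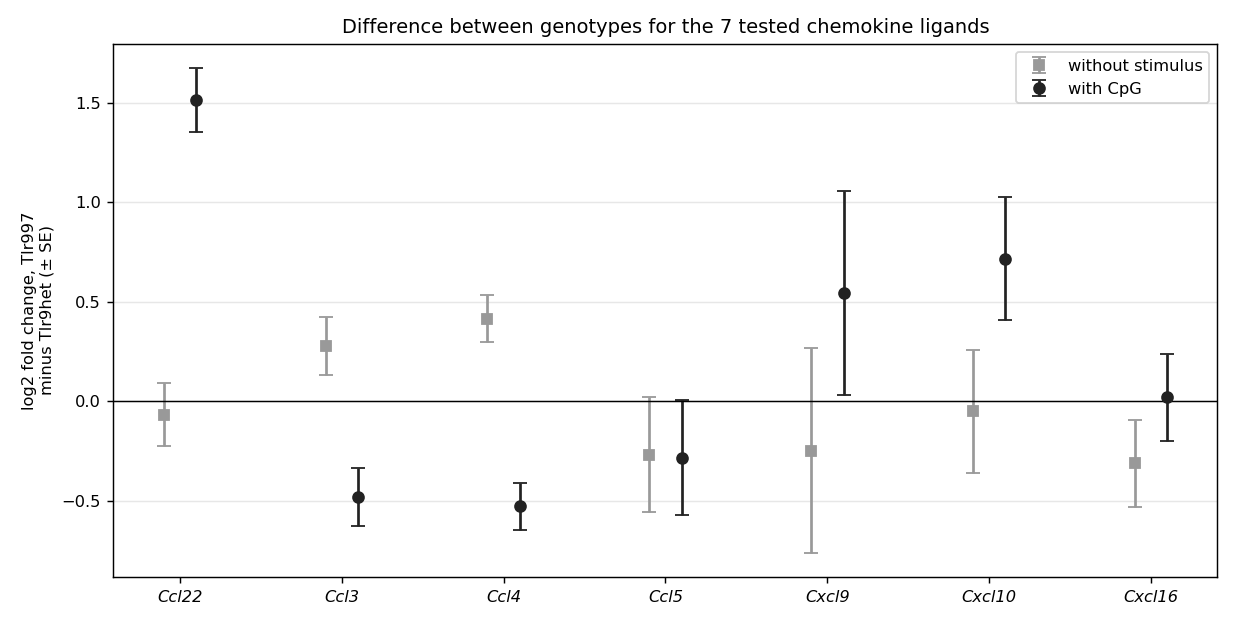
Log2 fold change between genotypes, Tlr997 minus Tlr9het (y axis), of the 7 tested chemokine ligands without stimulus (squares) and with CpG (circles), with error bars of 1 SE from limma. Ccl22 lay at -0.07 without stimulus and at 1.51 with CpG, whereas Ccl3 and Ccl4 lay above 0 without stimulus and below 0 with CpG.

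The difference of the CpG responses, Tlr997 minus Tlr9het, was called higher for 1 of the 7 genes and lower for 1, against 0.687% and 0.853% of all genes. These were again Ccl22, at 1.58 (SE 0.22), and Ccl4, at -0.94 (SE 0.17), given as descriptions. Ccl3 was at -0.76 (SE 0.21, adjusted p = 0.0845, limma). In a fit with the replicate number as a block, the adjusted p of Ccl3 was 0.0234, and with it 3 of the 7 were called. Without replicate 1 of unstimulated Tlr997 it was at -0.96 (adjusted p = 0.00522). Cxcl10 was at 0.77 (adjusted p = 0.419), Cxcl9 at 0.79 (adjusted p = 0.651), Cxcl16 at 0.33 (adjusted p = 0.659) and Ccl5 at -0.02 (SE 0.41, adjusted p = 0.991). The 95% interval of the difference for Ccl5 ran from -0.90 to 0.87, so a difference of the size seen for Ccl3 was not detectable for this gene.

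Among all genes, those whose log2 values over the 18 libraries were most like Ccl22 were Net1 (Pearson r = 0.974), Zfp112 (0.959), Wdr48 (0.958), Itgal (0.958) and Bzw1 (0.957), out of 11675 genes compared. Net1 encodes an exchange factor for RhoA and Itgal the alpha chain of the integrin LFA-1. Their ranges were narrower. The Net1 group means ran from 5.91 log2 CPM in unstimulated Tlr9het to 6.66 in Tlr997 with CpG, and those of Itgal from 7.58 in unstimulated Tlr997 to 8.67 in Tlr997 with CpG. The points share their groups and stimuli, so these values describe likeness only. Among the 8 chemokines, Ccl22 correlated most with Cxcl10, at 0.825, and Cxcl16, at 0.813, and least with Cxcl9, at 0.442.

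Most other chemokine ligands were scarcely detected. Of the 31 other ligands found, 19 had no value over 0 log2 CPM in any library, 7 of the 31 were below -4 in every library, and 9 passed the filter in the first arm and 7 in the second. Xcl1, a ligand of Xcr1 known from activated T and NK cells, was the only one called with CpG. It rose by 1.73 (SE 0.32, adjusted p = 2.9e-04, limma) in Tlr9het and by 0.88 (SE 0.32, adjusted p = 0.0268) in Tlr997. In Tlr779, Ccl6 was called lower with CL097, by -0.99 (SE 0.32, adjusted p = 0.0268). Cxcl2, a neutrophil attractant, had the highest unstimulated group mean of the other ligands, at 4.78 ± 0.32 (SD, n = 3) in Tlr9het, and its log2 fold change with CpG there was -0.28 (adjusted p = 0.172). With the 8 genes included, 7 of 16 tested ligands were called higher with CpG in each genotype of the first arm and 0 lower, and with CL097 6 of 14 were called higher and 1 lower. In each response 6 of these higher calls were the chosen genes, and over all genes 29.7%, 29.6% and 22.7% were called higher in Tlr9het, Tlr997 and Tlr779, so nothing is read from the family counts.

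**Figure D4:**
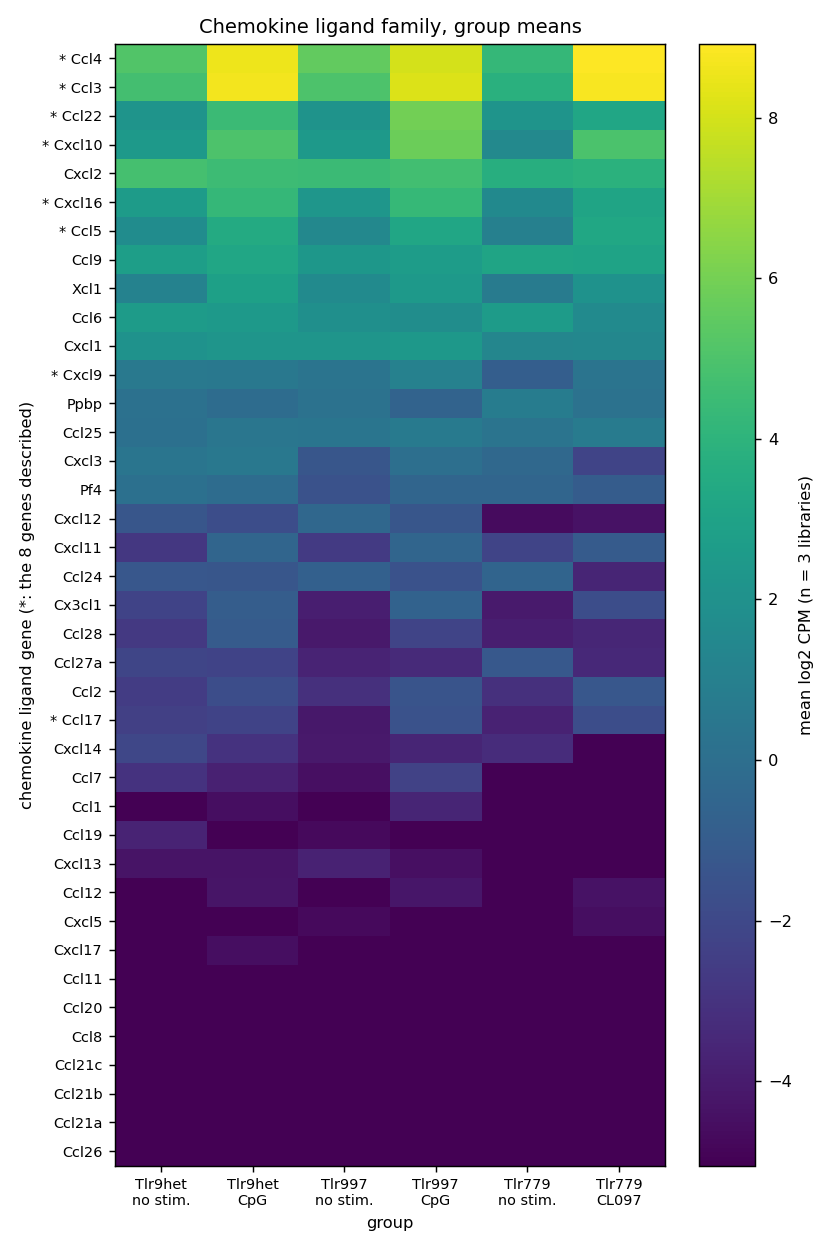
Mean log2 CPM (colour, n = 3 libraries) of the 39 chemokine ligand genes found in the files (rows, the 8 described genes marked with a star) in the 6 groups (columns). Ccl3 and Ccl4 are the brightest rows in every stimulated group, and most of the lower rows are near the lowest value in all groups.

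Chemokine receptor genes were called in both directions, as were genes in general. Of 15 chemokine receptors tested in the first arm, 3 rose and 6 fell with CpG in Tlr9het cells, and 3 rose and 5 fell in Tlr997 cells. With CL097, 4 of 14 were called higher and 6 lower. Over all genes, 29.7% were called higher and 28.2% lower in Tlr9het, 29.6% and 26.0% in Tlr997 and 22.7% and 23.6% in Tlr779, and the receptor counts are read as a description only. Cxcr3, the receptor of Cxcl9 and Cxcl10, changed by -2.82 (SE 0.41) in Tlr9het, -2.96 (SE 0.41) in Tlr997 and -2.62 (SE 0.83) in Tlr779. With agonist its group means were -0.81, -0.38 and -0.28 log2 CPM in that order. It passed the filter mainly through its unstimulated libraries, so its calls are descriptions only. Ccr1, a receptor of Ccl3 and Ccl5, changed by -1.90, -2.32 and -1.74 in the same order and was called lower in each. Cxcr6, the receptor of Cxcl16, had group means between -1.43 and 0.68 log2 CPM and was not called in the first arm. In Tlr779 it did not pass the filter and was not tested.

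Other receptors that place B cells in lymphoid tissue moved too. Ccr7, which draws B cells toward the T cell zone, rose by 1.27, 1.16 and 1.63 in Tlr9het, Tlr997 and Tlr779. Ccr6 changed by -2.67, -2.30 and -1.96, and Cxcr4, the receptor of Cxcl12, by -3.33, -3.47 and -1.08, each called lower. Ccbp2, also named Ackr2, a scavenger of inflammatory chemokines that include Ccl3, Ccl4, Ccl5 and Ccl22, changed by -3.94, -2.56 and -3.39. With agonist its group means were -2.10, -0.55 and -1.45 log2 CPM, so the sizes of these changes are uncertain. It passed the filter mainly through its unstimulated libraries, and its calls as lower in all 3 are descriptions only. Between genotypes with CpG, 1 receptor was called, Cxcr7 (Ackr3), which binds Cxcl12, at 2.53 ± 0.49 (SD, n = 3) log2 CPM in Tlr997 and 0.60 ± 0.19 in Tlr9het, a log2 fold change of 1.93 (SE 0.32, adjusted p = 0.00345, limma).

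Of the 3 proteases listed for chemokines, Adam10 and Adam17 can release Cxcl16 from the membrane and Dpp4 trims ligands such as Cxcl10 and Ccl22. Adam10 changed by -1.21 in Tlr9het, -1.14 in Tlr997 and -0.63 in Tlr779, and Adam17 by -0.76, -0.81 and -0.58, all called lower. Dpp4 was called lower with CpG, by -1.04 and -0.87, and was not called with CL097. None of the 3 was called between genotypes.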

How the data were processed

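The authors isolated RNA from bead-purified B cells, prepared stranded mRNA libraries, trimmed reads (FastQC 0.11.7, Trim Galore 0.6.5), aligned them to mm10 (STAR 2.6.1a) and made gene counts with featureCounts (Subread 2.0.1), versions per the submitters' processing notes. The deposited values are log2 CPM after quantile normalization and voom, 1 file per library, with no counts. The offset of 0.5 counts that voom adds understates changes of low genes. Of 6209 genes below -4 in all libraries, 6008 had 1 value per replicate number, and 524 of these differed between numbers. An offset per gene and number had therefore been removed before deposit. The tests do not take this into account, so their p-values may be too small.

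Analysis used limma 3.58.1 in R 4.3.3 with a variance trend. The first arm was fitted with its 12 libraries in 1 model, the second with its 6. P-values were adjusted by Benjamini-Hochberg over all genes tested. Genes named beside the 8 chemokines were those called in fixed lists, at most 6 per list, and the 5 genes most like Ccl22. Cxcl2, Ccr4, Cxcr6 and the markers named beside the sums were added after their values were seen. The 8 genes, the lists and the tests were chosen with earlier results of these data known. On simulated data for the CpG response in Tlr9het (11494 genes), 69 of 100 genes changed by 1 on the log2 scale and 84 of 100 changed by 2 were recovered. For CL097 (11082 genes) these were 55 and 89 of 100. Among the unchanged genes, 6 and 3 were called. Only 100 genes of each size were changed, whereas 6650 of 11494 genes were called in the real CpG response in Tlr9het. The simulated noise was independent and had no removed offset. These rates therefore do not carry over to the real data.

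Samples with the same number were compared by the correlation of their deviations from the group means over 11676 genes. It was 0.524, 0.270 and 0.514 in Tlr9het, 0.219, 0.413 and 0.284 in Tlr779 and 0.394, 0.066 and 0.036 in Tlr997. An offset per gene and number had already been removed from these values, so the correlations do not settle the pairing. The main fits used no block, and the replicate number as a block was an alternative only. Alternatives changed the filter, offset, scaling, weights, libraries, thresholds, variance model and block. Some genes of the lists are not reported here.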

Additional observations from a re-analysis of the deposited data

Results flagged for a closer look

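The CpG responses of 2 chemokine genes differed between Tlr997 and Tlr9het in the interaction term of the limma fit. For Ccl22 the response in Tlr997 minus that in Tlr9het was 1.58 (SE 0.22) on the log2 scale, from 2.13 to 5.96 log2 CPM in Tlr997 and from 2.19 to 4.45 in Tlr9het. For Ccl4 it was -0.94 (SE 0.17), from 5.55 to 8.04 log2 CPM in Tlr997 and from 5.13 to 8.57 in Tlr9het. Both were known when the genes were chosen, so the values are descriptions.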

How the results depend on the processing

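The counts of called chemokines in the CpG responses and without stimulus stayed within 1.5 times under every alternative run. With CpG, the count between genotypes was 1 instead of 2, also for the ligand family, without the filter, with array quality weights, at a log2 fold change over 1 and without the variance trend, and 1 to 2 with 1 library left out. Ccl4 was the gene lost, also without number 3 of both Tlr997 groups, where Cxcl10 entered. For the difference of responses the count was 1 instead of 2 without the filter, at a log2 fold change over 1 and without the variance trend, and 2 to 3 with 1 library left out. Ccl3 entered under array quality weights (-0.69, adjusted p = 0.0196, limma) and without Tlr997 unstimulated replicate 1 (-0.96, adjusted p = 0.00522). With CL097 the count was 3 instead of 6 without the filter, where Ccl22, Ccl5 and Cxcl16 had adjusted p of 0.0521, 0.0572 and 0.0950, and 6 to 7 with 1 library left out, since Cxcl9 passed without Tlr779 unstimulated replicate 2 (1.94, adjusted p = 0.0369). The cause was not tested.

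With the replicate number as a block, Ccl3 was called in the difference of responses (-0.76, adjusted p = 0.0234), 3 genes in all, genes called in all rose from 79 to 160 higher and from 98 to 168 lower, and no other call on the 8 genes changed.

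Signs that turned belonged to uncalled values near 0. With 1 library left out, Cxcl9 with CpG in Tlr9het ran from -0.416 to 0.442 (0.002 with log2 of CPM plus 1). Without stimulus, Ccl22 ran from -0.161 to 0.027, Cxcl10 from -0.346 to 0.198 and Cxcl9 from -0.646 to 0.265 (0.130 for Cxcl10 and 0.265 for Cxcl9 without number 3 of both Tlr997 groups), and Ccl5 was at 0.183 under array weights. Cxcl16 with CpG between genotypes ran from -0.023 to 0.064, and Ccl5 in the difference of responses from -0.197 to 0.347. With unknown depth, changes of Ccl17 and Cxcl9 are the least certain.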
